A study of Mus musculus with 14 samples.

Results

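The genes of MAdCAM-1 and of integrins on T cells were followed through RNA-Seq libraries of activated mouse CD4+ T cells: the adhesion ligand gene *Madcam1* and the integrin subunit genes *Itga4*, *Itga6*, *Itgae*, *Itgal*, *Itgav*, *Itgb1*, *Itgb2*, *Itgb3*, and *Itgb7*. They were taken by gene name or, in libraries where the assembled locus carried no name, by a locus of nearly the same span. The set was chosen by the level of *Madcam1*, which was higher in HDAC1cKO-HDAC2HET than in WT cells, so values in that comparison are given as a description, with no test. These are 10 genes of the 15171 tested in that experiment, and of the 14047 tested in the other. All 10 passed the filter on low values, a mean of at least 0.1 FPKM (sequenced fragments scaled to the length of the transcript and the size of the library), in both experiments.

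The data were 14 libraries from 2 experiments on C57BL/6 mice. The study's methods give its mice in general as of both sexes and aged 6 to 12 weeks, unless otherwise stated. Sex read from *Xist* did not vary among the libraries of the first experiment. In the first, 4 samples carried HDAC1f/f HDAC2f/+ with CD4cre (HDAC1cKO-HDAC2HET), which removes *Hdac1* fully and 1 copy of *Hdac2* from T cells, and 4 were WT; naive cells were activated with anti-CD3 and anti-CD28 plus IL-2 for 3 days. In the second, 3 samples carried HDAC1f/f with CD4cre (HDAC1cKO) and 3 were WT; after the same 3 days, the cells received anti-CD3 again for a further 12 hours. The cells were labelled as spleen and per the study's methods pooled from spleen and lymph nodes. Those methods give a sort of naive CD4+ T cells before culture and of viable cells before RNA extraction. The viable sort is described for the 3-day culture. The Cre is driven by Cd4 and deletes during thymic development in CD4+ and CD8+ lineage cells, so the deletion was present before activation. The experiments differed in culture, in batch, and in the *Hdac2* allele, and these cannot be told apart between experiments. In RNA from a bulk culture, fewer cells that express a gene and less RNA per cell cannot be told apart either.

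Integrins are cell surface receptors made of an alpha and a beta chain, and the pair decides which ligand is bound. On T cells the alpha 4 chain, encoded by *Itga4*, pairs with beta 7 (*Itgb7*) as the gut-homing receptor for MAdCAM-1, or with beta 1 (*Itgb1*) as the receptor for VCAM-1, while alpha L (*Itgal*) pairs with beta 2 (*Itgb2*) as LFA-1, the receptor for ICAMs. MAdCAM-1 itself, the product of *Madcam1*, is known as an addressin on venules of the gut and Peyer's patches and on marginal sinus cells of the spleen, not as a T cell product.

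The genes lie on chromosomes 2 (*Itga4*, *Itga6*, and *Itgav*), 7 (*Itgal*), 8 (*Itgb1*), 10 (*Madcam1* and *Itgb2*), 11 (*Itgae* and *Itgb3*), and 15 (*Itgb7*) of GRCm38, which is mm10. The promoters of *Madcam1* and of both chains of its receptor are shown because these genes moved differently although their products act together. Each covers 250 bases before to 50 after the start of the gene, 5′ to 3′ on the strand of the gene, from RefSeq on GRCm38.p6: chr10:79664309-79664608 on the plus strand for *Madcam1*, chr2:79255176-79255475 on the plus strand for *Itga4*, and chr15:102231886-102232185 on the minus strand for *Itgb7*. Capitals mark matches to any of 4 motifs on either strand.
Madcam1: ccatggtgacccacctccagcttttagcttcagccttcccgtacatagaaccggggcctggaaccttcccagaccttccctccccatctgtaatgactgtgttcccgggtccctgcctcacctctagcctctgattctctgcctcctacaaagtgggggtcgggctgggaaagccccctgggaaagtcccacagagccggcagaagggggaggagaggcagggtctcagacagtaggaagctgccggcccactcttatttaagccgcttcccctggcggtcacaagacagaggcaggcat
Itga4: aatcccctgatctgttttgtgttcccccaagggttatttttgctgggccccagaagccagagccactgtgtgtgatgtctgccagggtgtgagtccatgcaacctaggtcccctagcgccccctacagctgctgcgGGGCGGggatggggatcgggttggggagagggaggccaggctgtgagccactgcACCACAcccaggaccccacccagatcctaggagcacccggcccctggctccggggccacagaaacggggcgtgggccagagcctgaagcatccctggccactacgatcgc
Itgb7: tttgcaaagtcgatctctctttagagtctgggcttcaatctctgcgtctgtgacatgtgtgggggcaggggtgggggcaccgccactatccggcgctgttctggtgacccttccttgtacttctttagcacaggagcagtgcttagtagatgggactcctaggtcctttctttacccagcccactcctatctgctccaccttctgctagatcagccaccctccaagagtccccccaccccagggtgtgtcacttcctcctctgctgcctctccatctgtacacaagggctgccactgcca
The motifs were the GC box GGGCGG, the RUNX core TGTGGT, the ETS core CCGGAA, and the TATA box TATAAA, whose matches did not overlap in the promoters shown. The *Itga4* promoter held 1 GC box and 1 RUNX core, and those of *Madcam1* and *Itgb7* held no match to any of the 4. Of all 32851 promoters in the table, 35.7% held the GC box, 16.8% the RUNX core, 14.9% the ETS core, and 13.6% the TATA box. The 3 promoters had 8, 10, and 5 CpG dinucleotides, against a median of 7, and 60%, 64.3%, and 56.3% GC, against a median of 52.7%. A match describes the letters of the window and says nothing on binding, which was not measured. Promoters were also in the table for *Itgav* and *Itgb1*, and each held 1 GC box, with 1 ETS core in that of *Itgb1*.

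The targeted genes followed the labels. *Hdac1* was 78.1 ± 1.44 FPKM (SD, n = 4) in WT and 8.30 ± 1.89 FPKM in HDAC1cKO-HDAC2HET samples, and 75.6 ± 4.78 and 10.1 ± 1.82 FPKM (n = 3 each) in WT and HDAC1cKO samples (limma adjusted p = 2.75e-06 and 0.00207). *Hdac2* was 59.0 ± 1.04 in WT and 35.4 ± 1.36 FPKM in HDAC1cKO-HDAC2HET samples (limma adjusted p = 2.83e-06), and 72.4 ± 8.65 and 80.4 ± 6.91 FPKM in WT and HDAC1cKO samples (limma adjusted p = 0.582). All 8 T cell markers were present. Their sum was 1764 to 1882 FPKM in WT and 1536 to 1580 FPKM in HDAC1cKO-HDAC2HET samples, lower without overlap. In the second experiment the sum was 1394 to 1717 FPKM in WT and 1538 to 1725 FPKM in HDAC1cKO samples. Depth, estimated from the deposited confidence bounds, ran from 25200000 to 59600000 fragments in the first experiment and from 28600000 to 49900000 in the second.

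*Madcam1* was the member that stood furthest from WT, and it was close to the limit of detection in every WT library. The WT samples of the first experiment were at 0.242, 0.213, 0.219, and 0.172 FPKM. The HDAC1cKO-HDAC2HET samples were at 6.97, 7.47, 8.53, and 7.75 FPKM. All 4 mutant samples lay far above all 4 WT samples, and within each group the values were close together. The mean was 36.3 times that of WT (7.68 ± 0.653 against 0.211 ± 0.0295 FPKM, SD, n = 4 each). On the scale of log2(FPKM + 0.1) the difference was 4.64 (SE 0.10, 95% interval 4.41 to 4.88), and it depends on the added constant because the WT level is of the same size as that constant. The confidence bounds imply 9 to 14.7 fragments behind each WT value and 212.5 to 452.8 behind each mutant value, so the WT values carry the larger counting error.

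*Madcam1* was also higher in the HDAC1cKO samples, but the difference did not pass the test. The WT samples of that experiment were at 0.145 and 0.169 FPKM, with the remaining sample, replicate 2, listed at 0. The HDAC1cKO samples were at 0.553, 0.649, and 0.924 FPKM. The groups did not overlap, and every mutant sample was above every WT sample. The difference was 2.08 on the log2(FPKM + 0.1) scale (SE 0.46, 95% interval 0.96 to 3.21), with a limma adjusted p of 0.188 over 14047 genes and an unadjusted p of 0.00395. A 2-sided exact permutation test gave p = 0.1, the smallest that 3 against 3 samples allow. Only 5 to 6 fragments stood behind the WT values above 0, and 22.8 to 48.7 behind the mutant values. When sex, read from *Xist*, entered the model, the difference was 2.99 and its limma adjusted p 0.0849. With a pseudocount of 1 it was 0.63 and with 0.01 it was 3.43.

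**Figure D1:**
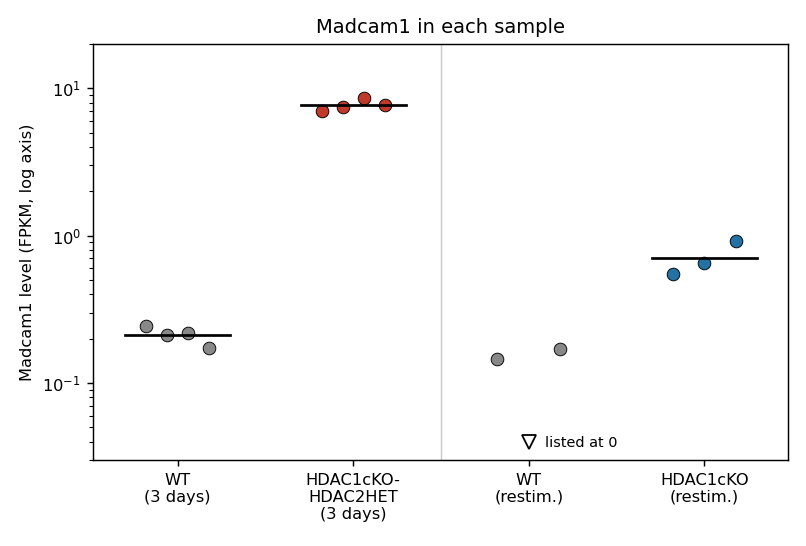
*Madcam1* in FPKM on a log axis for each sample, with group means as bars where no sample was listed at 0; the open triangle marks the WT sample listed at 0, which has no place on a log axis. The HDAC1cKO-HDAC2HET samples sit between 6.97 and 8.53 FPKM and the HDAC1cKO samples between 0.553 and 0.924 FPKM, each set above its own WT samples.

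Across the 4 groups, *Madcam1* was highest in HDAC1cKO-HDAC2HET cells, then in HDAC1cKO cells, then in both sets of WT cells, and no neighbouring ranges overlapped, although the WT sets nearly met at 0.172 and 0.169 FPKM. Among the 10 members of HDAC1cKO-HDAC2HET cells, *Madcam1* ranked eighth, with a range that overlapped that of *Itgav*, whereas in the matching WT cells it ranked ninth and only *Itgae* was lower. In HDAC1cKO cells it was also ninth, above *Itgae*.

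Because MAdCAM-1 is known from endothelial and stromal cells, the markers of such cells were read beside it. Of 10 endothelial markers, 9 had values, and *Pecam1*, which T cells also express, was the only one above 0.1 FPKM on average in the first experiment. The summed level was 15.9 to 21.9 FPKM in WT and 6.92 to 9.20 FPKM in HDAC1cKO-HDAC2HET samples, most of it *Pecam1*, at 19.0 ± 2.65 and 7.75 ± 1.08 FPKM. *Plvap*, a marker of fenestrated endothelium, was at 0.0558 ± 0.0367 and 0.0926 ± 0.0170 FPKM, and *Cldn5* was listed at 0 in WT and reached 0.0255 FPKM in HDAC1cKO-HDAC2HET samples. *Emcn* was listed at 0 in all 14 libraries, and *Cdh5*, which encodes VE-cadherin, was listed at 0 in every mutant library of both experiments. Of 11 stromal and reticular markers, 3 were above 0.1 FPKM on average; their sum was 1.11 to 1.27 FPKM in WT and 2.59 to 5.36 FPKM in HDAC1cKO-HDAC2HET samples, and *Ccl21a* and *Col3a1* were listed at 0. In the mutant samples the sum was led by *Cxcl13*, a chemokine gene that helper T cells can also express, which was at 0.351 ± 0.112 and 3.00 ± 1.08 FPKM (SD, n = 4 each). The stromal sum of the second experiment was 0.713 to 7.52 FPKM in WT and 15.2 to 30.8 FPKM in HDAC1cKO samples, where *Cxcl13* was at 2.49 ± 3.71 and 22.2 ± 7.81 FPKM (SD, n = 3 each). The endothelial sum there was 8.82 to 13.04 and 6.96 to 11.1 FPKM. *Vwf* (0.413 and 0.340 FPKM) and *Plvap* (0.142 and 0.116 FPKM) were above 0.1 FPKM on average in WT and HDAC1cKO samples. *Kdr* was higher without overlap, at 0.00946 to 0.0185 FPKM in WT and 0.0390 to 0.160 FPKM in HDAC1cKO samples. *Tek* was at 0.0298 and 0.0120 FPKM and *Tie1* at 0.0772 and 0.0825 FPKM on average.

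Other lineages' markers were low, and the B cell and CD8 sums also differed between the groups of the first experiment. The 6 B cell markers summed to 0.511 to 0.953 FPKM in WT and 2.79 to 4.42 FPKM in HDAC1cKO-HDAC2HET samples, led there by *Cd79b*. Of 8 myeloid markers, 7 had values in all WT samples and 8 in all mutant samples. Their sums were 0.249 to 0.426 FPKM in WT, led by *Itgam*, and 2.24 to 4.63 FPKM in the mutant, led by *Cd68*. These myeloid sums cover unlike sets of genes, so no difference is read from them. The 2 CD8 genes, *Cd8a* and *Cd8b1*, summed to 3.28 to 5.96 FPKM in WT and 11.7 to 15.2 FPKM in HDAC1cKO-HDAC2HET samples. Most of each sum was *Cd8b1*, at 4.71 and 12.8 FPKM on average. For *Cd8a*, the paper reports a higher level in the HDAC1cKO-HDAC2HET CD4+ T cells themselves, though very low. The NK cell markers, of which 1 of 2 had a value in the first experiment, did not exceed 0.0155 FPKM there. In the second experiment the B cell markers summed to 0.684 to 0.803 FPKM in WT and 0.755 to 1.07 FPKM in HDAC1cKO samples. The myeloid markers summed to 5.35 to 5.85 and 4.33 to 6.04 FPKM in that order. The CD8 genes summed to 3.80 to 4.86 and 6.52 to 7.30 FPKM, higher in the mutant without overlap. Whether cells of these or of the endothelial and stromal lineages were present was not tested, nor was their part in the *Madcam1* level.

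The receptor pair for MAdCAM-1 did not move as a unit. *Itga4*, the alpha chain shared by the gut-homing and the VCAM-1 receptor, was at 8.41, 7.88, 7.38, and 7.44 FPKM in WT. In HDAC1cKO-HDAC2HET samples it was at 10.5, 12.3, 12.7, and 11.2 FPKM. Every mutant sample was above every WT sample, and the means were 7.78 ± 0.475 and 11.7 ± 0.993 FPKM. Its log2 difference was 0.58 (SE 0.07, 95% interval 0.41 to 0.75).

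*Itgb7*, the beta chain that makes *Itga4* a MAdCAM-1 receptor, was at 54.4, 61.4, 64.3, and 64.4 FPKM in WT. In HDAC1cKO-HDAC2HET samples it was at 55.5, 53.4, 45.3, and 50.5 FPKM. The groups overlapped, since WT replicate 1 lay below mutant replicate 1, and the log2 difference was -0.26 (95% interval -0.44 to -0.07). *Itgb7* was far above *Itga4* in all groups. The ratio of *Itga4* to *Itgb7*, both in FPKM and therefore per length, was 0.128 ± 0.0186 in WT and 0.231 ± 0.0372 in HDAC1cKO-HDAC2HET samples, and the ranges of 0.115 to 0.155 and 0.190 to 0.280 did not meet.

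In the HDAC1cKO experiment neither chain passed the test. *Itga4* was at 8.18, 7.35, and 10.9 FPKM in WT and at 7.81, 10.9, and 13.8 FPKM in HDAC1cKO samples, with overlapping groups (log2 difference 0.28, 95% interval -0.33 to 0.89, limma adjusted p = 0.625). *Itgb7* was at 36.5, 35.5, and 29.4 FPKM in WT and at 35.7, 22.6, and 23.1 FPKM in HDAC1cKO samples, again overlapping (log2 difference -0.34, 95% interval -0.83 to 0.14, limma adjusted p = 0.483). The samples with the higher *Itga4* in the mutant group, replicates 2 and 3, were those with the lower *Itgb7*.

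*Itgae* encodes the alpha E chain, CD103, the other partner of beta 7, which binds E-cadherin on epithelial cells. It was the lowest member in the first experiment, at 0.0790 to 0.116 FPKM in WT and 0.0768 to 0.149 FPKM in HDAC1cKO-HDAC2HET samples, with overlapping groups and a log2 difference of 0.04 (95% interval -0.39 to 0.47). Its level there was near the filter of 0.1 FPKM. The second experiment had it at 0.163, 0.172, and 0.213 FPKM in WT and at 0.271, 0.319, and 0.229 FPKM in HDAC1cKO samples. Those groups did not overlap, but the difference did not pass the test (log2 difference 0.40, 95% interval -0.23 to 1.03, limma adjusted p = 0.528; exact permutation p = 0.1, the smallest possible). *Itgae* shares bases with *Haspin* on the other strand, and whether the authors' counting used strand is not given in the sources used here.

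The LFA-1 chains were among the most abundant members. *Itgal*, the alpha L chain, was the highest of all 10 in WT cells, at 146, 159, 139, and 130 FPKM. In HDAC1cKO-HDAC2HET samples it was at 101, 97.2, 105, and 95.8 FPKM. All mutant samples were below all WT samples, with means of 143.6 ± 12.1 and 99.7 ± 4.17 FPKM and a log2 difference of -0.52 (95% interval -0.67 to -0.38). The value of mutant replicate 4 was deposited with a failed estimation status and no bounds; without that sample all mutant values still lay below the WT range.

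*Itgal* in the second experiment was at 123, 158, and 143 FPKM in WT and at 114, 114, and 121 FPKM in HDAC1cKO samples. The groups did not overlap, by a gap from 121 to 123 FPKM, and the difference did not pass the test (log2 difference -0.27, 95% interval -0.53 to -0.02, limma unadjusted p = 0.0402, adjusted p = 0.332). *Itgb2*, the common beta chain of leukocyte integrins, was more even. It was at 84.9 to 96.0 FPKM in WT and 80.0 to 87.2 FPKM in HDAC1cKO-HDAC2HET samples (log2 difference -0.11, 95% interval -0.21 to -0.01), and at 62.7 to 88.0 and 74.1 to 80.0 FPKM in WT and HDAC1cKO samples (log2 difference 0.01, 95% interval -0.32 to 0.33, limma adjusted p = 0.990). Both pairs of groups overlapped. The ratio of *Itgal* to *Itgb2* was 1.59 ± 0.116 in WT and 1.20 ± 0.0903 in HDAC1cKO-HDAC2HET samples, and 1.86 ± 0.200 and 1.52 ± 0.107 in WT and HDAC1cKO samples.

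*Itgb1* encodes the beta 1 chain of the receptors for VCAM-1, fibronectin, laminin, and collagen. It was at 82.6, 73.7, 75.8, and 70.9 FPKM in WT and at 82.6, 94.4, 100.2, and 94.5 FPKM in HDAC1cKO-HDAC2HET samples. Replicate 1 of each group lay at the same level, so the groups overlapped, and the other mutant samples were above every WT sample (log2 difference 0.29, 95% interval 0.13 to 0.45). *Itgb1* in the second experiment was at 80.2, 76.0, and 111.6 FPKM in WT and at 101.4, 141.8, and 161.7 FPKM in HDAC1cKO samples. WT replicate 3 lay above mutant replicate 1, and the difference did not pass the test (log2 difference 0.59, 95% interval 0.05 to 1.13, limma unadjusted p = 0.0378, adjusted p = 0.327).

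*Itga6*, the laminin-binding alpha 6 chain that pairs with beta 1 on T cells, overlapped between groups in both experiments. It was at 12.5 to 14.3 FPKM in WT and 13.4 to 17.5 FPKM in HDAC1cKO-HDAC2HET samples (log2 difference 0.14, 95% interval -0.07 to 0.36). The second experiment gave 7.82 to 9.49 and 6.49 to 10.5 FPKM (log2 difference -0.03, 95% interval -0.50 to 0.44, limma adjusted p = 0.966). The assembled locus of *Itga6* started at different positions in the experiments, so its levels are not compared between them. *Itga6*, *Itga4*, and *Itgav* share bases with other annotated genes, 4, 1, and 2 of them.

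The alpha v and beta 3 chains, which together form the vitronectin receptor, were both higher in HDAC1cKO-HDAC2HET cells. *Itgb3* was at 8.78, 9.02, 9.98, and 8.29 FPKM in WT. In HDAC1cKO-HDAC2HET samples it was at 19.4, 17.9, 12.5, and 16.8 FPKM. The groups did not overlap; mutant replicate 3, the library with the lowest estimated depth, was the lowest of its group. After *Madcam1* this was the second highest log2 difference of the 10 members, 0.86 (SE 0.13, 95% interval 0.55 to 1.17), with means of 9.02 ± 0.712 and 16.6 ± 2.95 FPKM.

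*Itgav* was at 6.02, 5.14, 5.04, and 5.29 FPKM in WT and at 7.08, 6.95, 7.74, and 7.18 FPKM in HDAC1cKO-HDAC2HET samples, without overlap (log2 difference 0.42, 95% interval 0.27 to 0.58). In the second experiment both overlapped between groups. *Itgb3* was at 4.76, 5.39, and 3.69 FPKM in WT and at 5.35, 4.46, and 5.67 FPKM in HDAC1cKO samples (log2 difference 0.17, 95% interval -0.27 to 0.61, limma adjusted p = 0.692). *Itgav* was at 19.2, 9.66, and 9.55 FPKM in WT and at 13.7, 10.97, and 14.6 FPKM in HDAC1cKO samples (log2 difference 0.10, 95% interval -0.62 to 0.83, limma adjusted p = 0.905). WT replicate 1 was the highest *Itgav* value of all 14 libraries. Since platelets also carry beta 3, 8 platelet and megakaryocyte markers, 7 of them with values and *Itga2b* among them, were read beside it; their part in the *Itgb3* level was not tested. Their sum was 0.605 to 1.09 FPKM in WT and 0.227 to 0.304 FPKM in HDAC1cKO-HDAC2HET samples, and *Pf4*, *Ppbp*, and *Treml1* were listed at 0 in both groups.

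**Figure D2:**
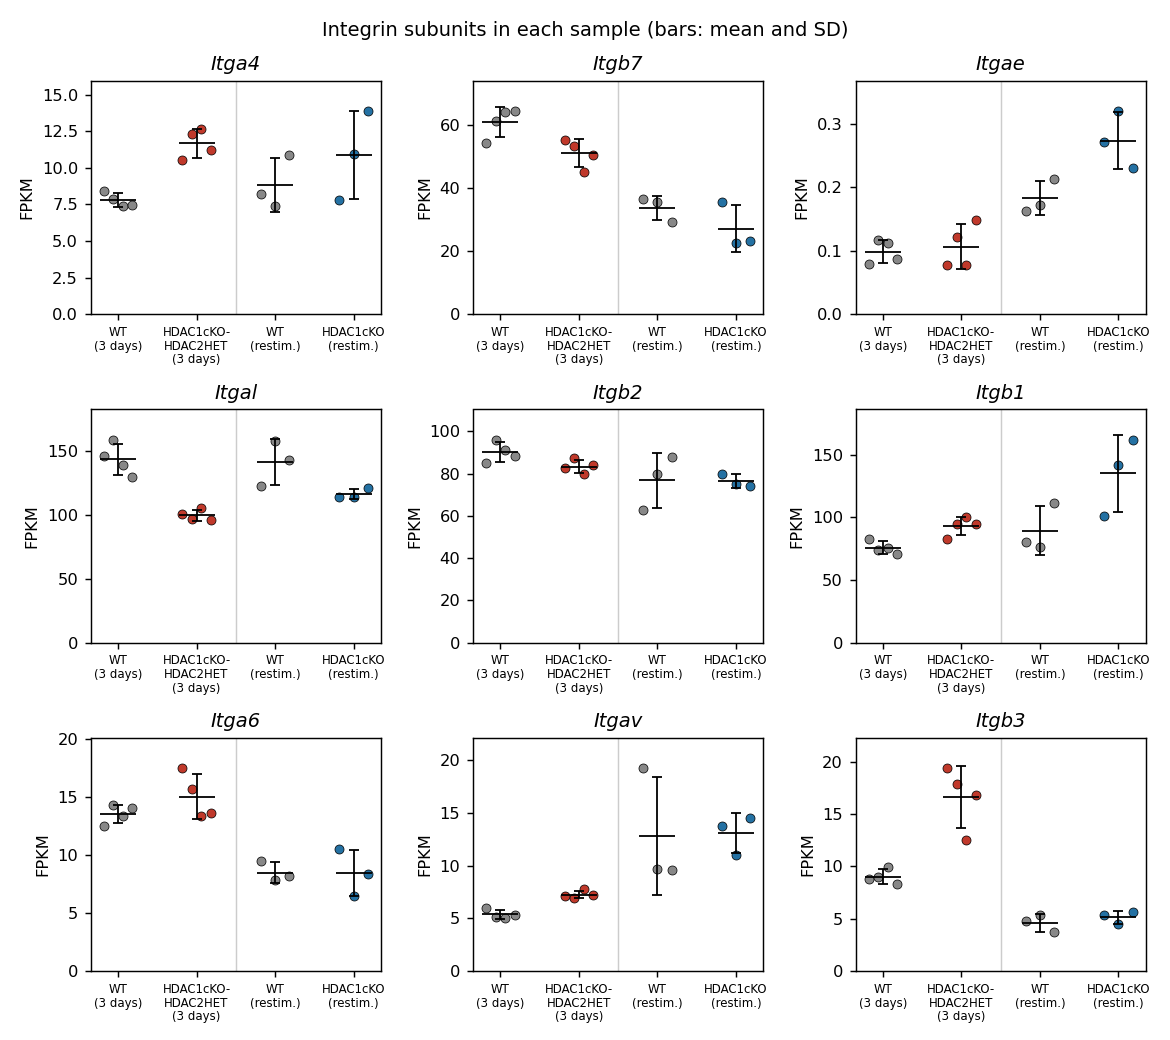
FPKM of the 9 integrin subunit genes in each sample, on linear axes from 0, with the mean and SD of each group (n = 4, 4, 3, and 3); WT is gray, HDAC1cKO-HDAC2HET red, and HDAC1cKO blue. *Itga4*, *Itgav*, and *Itgb3* are higher and *Itgal* lower in all HDAC1cKO-HDAC2HET samples than in all WT samples of the same experiment.

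In HDAC1cKO-HDAC2HET cells, 4 members (*Madcam1*, *Itga4*, *Itgav*, and *Itgb3*) were higher without overlap, 1 (*Itgal*) was lower without overlap, and 5 overlapped with WT. Groups that do not overlap were common in this experiment, at 50.3% of all tested genes in either direction, 23.4% higher and 26.9% lower, and nothing is read from the members' count. The members' median log2 difference was 0.22, against -0.05 over all genes tested. In HDAC1cKO cells, 0 of the 10 members passed an adjusted p of 0.05 by limma, where 0.0925% of all genes did, and 3 (*Madcam1*, *Itgal*, and *Itgb1*) had an unadjusted p under 0.05, where 14.2% of all genes did. There, 2 members were higher and 1 lower without overlap, against 9.92% and 12.3% of all genes and 22.3% in either direction, and the median was 0.13 against -0.03. Of the 10, 7 had a positive and 3 a negative log2 difference in each experiment. Whether any member's difference was unlike between the experiments was not tested.

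**Figure D3:**
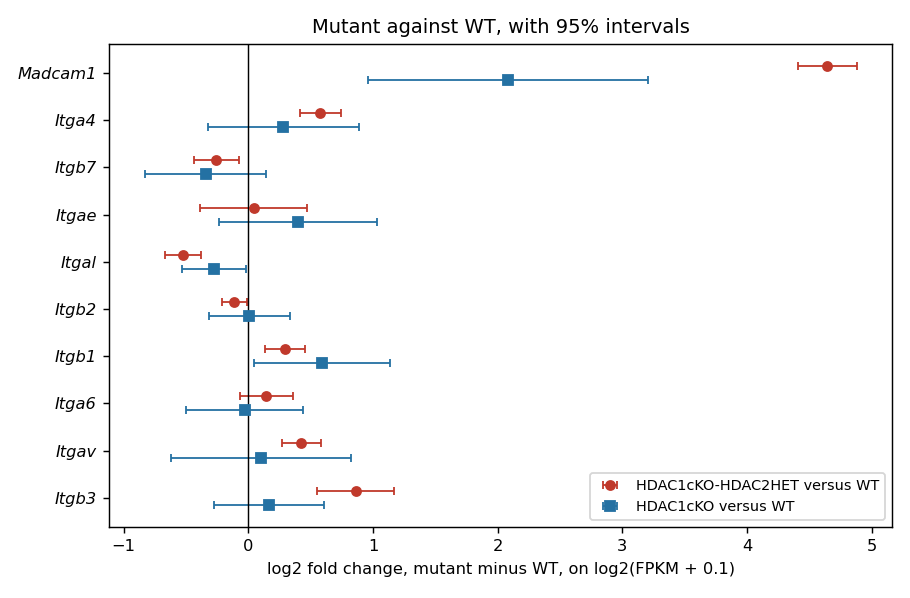
Log2 difference between mutant and WT on log2(FPKM + 0.1) for the 10 members, with 95% intervals from limma; circles are HDAC1cKO-HDAC2HET and squares HDAC1cKO, each against its own WT. *Madcam1* lies at 4.64 and 2.08, and every integrin subunit lies between -0.52 and 0.86.

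Levels of several members also differed between the experiments. *Itgb7* was at 45.3 to 64.4 FPKM in the first experiment and 22.6 to 36.5 FPKM in the restimulated cells of the second. *Itgb3* was at 8.29 to 19.4 FPKM in the first and 3.69 to 5.67 FPKM in the second, while *Itgav* was at 5.04 to 7.74 FPKM in the first and 9.55 to 19.2 FPKM in the second. For these genes the libraries of one experiment lay wholly apart from those of the other. *Itgal*, *Itgb2*, *Itgb1*, and *Itga4* overlapped between both sets of WT samples.

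The mix of subunit messages shifted accordingly. *Itgal* made up 84.2 ± 0.996% of the summed FPKM of the 5 alpha chains in WT and 74.5 ± 0.943% in HDAC1cKO-HDAC2HET cells (SD, n = 4 each), while *Itga4* made up 4.57 ± 0.278% and 8.74 ± 0.695%. The ranges of each did not meet between the groups. Among the 4 beta chains, *Itgb1* made up 32.1 ± 2.49% in WT and 38.1 ± 3.19% in HDAC1cKO-HDAC2HET cells, and *Itgb7* 25.9 ± 1.78% and 21.0 ± 1.69%. *Itgal* in the second experiment made up 82.1 ± 4.85% in WT and 78.1 ± 1.67% in HDAC1cKO cells, and *Itgb1* 43.4 ± 4.66% and 54.9 ± 8.23% (n = 3 each). The summed alpha FPKM was 157 to 186.2 in WT and 128 to 139 in HDAC1cKO-HDAC2HET samples, and the summed beta FPKM overlapped, at 231 to 241 and 238 to 253. These sums hold the same values as the single genes and are not further evidence, and message levels do not give the number of receptors on the cell surface.

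**Figure D4:**
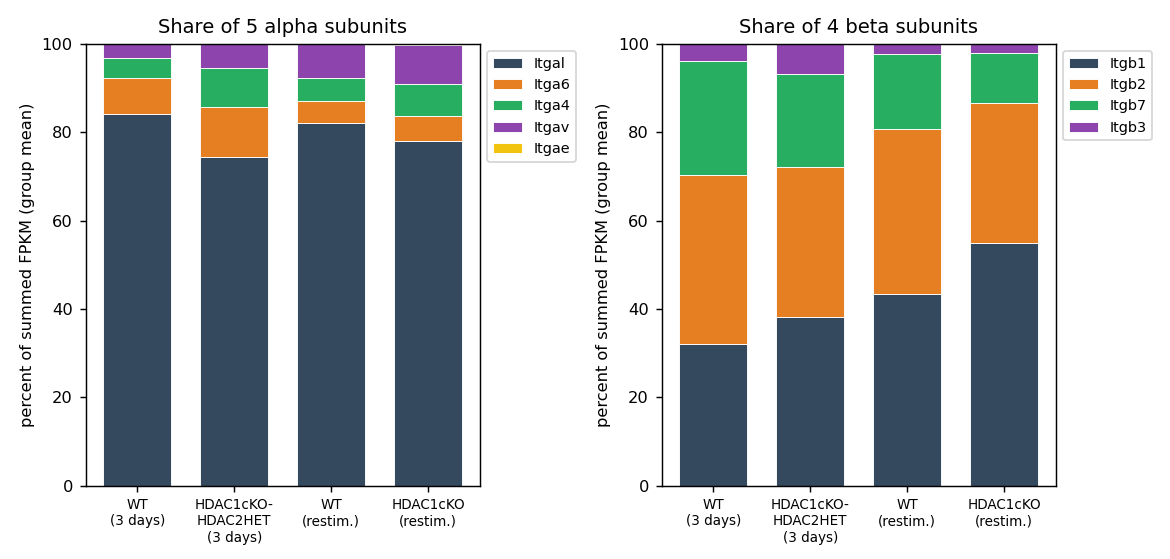
Mean percent of summed FPKM contributed by each of 5 alpha subunits and each of 4 beta subunits in the 4 groups, as stacked bars that start at 0. *Itgal* holds 74.5% to 84.2% of the alpha sum, and *Itgb1* holds 32.1% of the beta sum in WT cells of the first experiment and 54.9% in HDAC1cKO cells.

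The other genes of the integrin system were counted from lists of integrin subunits, ligands, and activation and adhesion complex genes. Of 17 other integrin subunits, 8 could be tested in the first experiment, 6 were too low, and 3 had no usable locus. In HDAC1cKO-HDAC2HET cells 2 rose and 1 fell (limma adjusted p of at most 0.05), where 24.2% of all genes rose and 27.6% fell. *Itga5*, whose chain pairs with beta 1 as the fibronectin receptor, rose from 1.63 ± 0.178 to 2.67 ± 0.109 FPKM (log2 difference 0.68, limma adjusted p = 0.000361). *Itga3*, a laminin receptor chain, rose from 4.18 ± 0.724 to 6.69 ± 1.04 FPKM (log2 difference 0.67, limma adjusted p = 0.00650). *Itga9*, a partner of beta 1 that binds osteopontin and tenascin, fell from 2.03 ± 0.0940 to 1.31 ± 0.159 FPKM (log2 difference -0.60, limma adjusted p = 0.00106). *Itga7*, whose chain binds laminin, was at 1.31 ± 0.898 and 0.623 ± 0.235 FPKM (limma adjusted p = 0.175). Without WT replicate 2, 3 fell in place of 1, *Itga7* and *Itga2b* being added. The list's median log2 difference was -0.14, against -0.05 for all genes.

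In HDAC1cKO cells 0 of 8 tested subunits passed by limma, against 0.0925% of all genes, and 1, *Itga5*, had an unadjusted p under 0.05, against 14.2% of all genes. *Itga5* was at 3.61 ± 0.516 in WT and 4.85 ± 0.0380 FPKM in HDAC1cKO samples (limma adjusted p = 0.287). *Itga9* was at 0.368, 1.63, and 2.24 FPKM in WT and at 3.45, 2.58, and 2.82 FPKM in HDAC1cKO samples, higher without overlap (limma adjusted p = 0.395). *Itga3* was at 11.9 ± 4.54 and 8.07 ± 2.05 FPKM (limma adjusted p = 0.571), and *Itga2b*, the platelet alpha chain, at 0.884 ± 0.374 and 0.768 ± 0.349 FPKM (limma adjusted p = 0.852).

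Of 31 ligand genes, 11 could be tested in the first experiment; 4 rose and 3 fell in HDAC1cKO-HDAC2HET cells, where 24.2% of all genes rose and 27.6% fell. *Spp1*, which encodes osteopontin, a ligand of alpha v beta 3, was at 5.08, 11.5, 5.61, and 8.29 FPKM in WT. It was at 67.0, 56.9, 48.9, and 74.3 FPKM in HDAC1cKO-HDAC2HET samples. All mutant samples were far above WT, and *Spp1* rose by 3.06 on the log2 scale (SE 0.27, limma adjusted p = 5.02e-05). *Icam1*, the main ligand of LFA-1, rose from 9.33 ± 2.24 to 42.5 ± 1.48 FPKM (log2 difference 2.21, limma adjusted p = 1.95e-05).

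The ligand genes that fell were *Thbs1*, *Tgfb1*, and *Tgfb3*. *Thbs1*, which encodes thrombospondin-1, fell from 2.71 ± 0.411 to 0.965 ± 0.147 FPKM (log2 difference -1.40, limma adjusted p = 0.000131). *Tgfb1*, whose latent form is bound by alpha v integrins, was 130.1 ± 1.46 FPKM in WT and 121.4 ± 4.603 FPKM in HDAC1cKO-HDAC2HET samples (log2 difference -0.10, limma adjusted p = 0.0292), a call that was lost with median ratio scaling and without a variance trend. Without WT replicate 2, 3, or 4, 1 ligand gene fell in place of 3, the calls of *Tgfb1* and *Tgfb3* being lost each time; *Tgfb3* was named here after its values were seen. *Icam2*, another LFA-1 ligand, was assembled over unlike spans and was not tested in this experiment. The list's median log2 difference was 0.05, against -0.05.

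In HDAC1cKO cells 18 ligand genes could be tested. By limma 0 passed, where 0.0925% of all genes did, and 3 had an unadjusted p under 0.05, where 14.2% of all genes did. *Spp1* came closest, at 0.456, 0.400, and 0.859 FPKM in WT and 8.11, 4.07, and 5.75 FPKM in HDAC1cKO samples. It lay above WT in all 3 samples (log2 difference 3.19, SE 0.36), with a limma adjusted p of 0.0629. *Icam1* was at 19.8, 8.81, and 21.9 FPKM in WT and at 32.9, 29.5, and 31.6 FPKM in HDAC1cKO samples (log2 difference 1.00, limma adjusted p = 0.301). When sex entered the model its limma adjusted p was 0.0109. *Tgfb1*, *Icam2*, and *Lamc1*, a laminin chain gene, had limma adjusted p of 0.943, 0.429, and 0.969.

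The activation and adhesion complex list holds genes of proteins that regulate integrins from inside the cell or link them to actin, along with *Ndfip1*. It is not limited to activators, so counts of genes that rose or fell give no direction of integrin activation. Of 38 genes, 33 could be tested in the first experiment; 13 rose and 17 fell in HDAC1cKO-HDAC2HET cells, where 24.2% of all genes rose and 27.6% fell. Of these, 3 in each direction changed at least 2-fold, where 5.58% of all genes rose and 5.56% fell that far. The list's median log2 difference was -0.13, against -0.05. *Rasgrp2*, an exchange factor that activates RAP1, rose from 3.59 ± 0.931 to 15.2 ± 5.18 FPKM (log2 difference 2.03, limma adjusted p = 0.000612). Of the 2 RAP1 genes on the list, *Rap1b* rose from 167.7 ± 2.18 to 211.3 ± 9.37 FPKM (log2 difference 0.33, limma adjusted p = 0.000145). The other, *Rap1a*, named here after its values were seen, fell (log2 difference -0.40, limma adjusted p = 0.0118). *Ptk2*, which encodes focal adhesion kinase, fell from 3.69 ± 0.224 to 0.896 ± 0.146 FPKM (log2 difference -1.94, limma adjusted p = 9.40e-06). *Ndfip1*, an adaptor of NEDD4 family ubiquitin ligases, fell from 264.1 ± 6.91 to 224.1 ± 7.75 FPKM (log2 difference -0.24, limma adjusted p = 0.000682).

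In HDAC1cKO cells 34 genes of that list could be tested, and 0 passed by limma, against 0.0925% of all genes. At an unadjusted p under 0.05, 2 were higher and 7 lower, against 14.2% of all genes in either direction. Without WT replicate 3, 1 passed, *Tns1*, which was named after its values were seen and encodes tensin-1, a linker of beta chains to actin (log2 difference -1.96, limma adjusted p = 0.0470). *Rap1b* was at 248.0 ± 21.5 and 252.1 ± 15.1 FPKM, *Ndfip1* at 234.9 ± 15.6 and 238.5 ± 4.82 FPKM, *Cytip*, a cytohesin-binding regulator of LFA-1 adhesion, at 206.0 ± 23.5 and 163.4 ± 14.9 FPKM, and *Vasp*, an actin regulator, at 114.8 ± 10.3 and 106.7 ± 3.46 FPKM (limma adjusted p = 0.929, 0.916, 0.294, and 0.607). The median log2 difference over the 34 genes was -0.02, against -0.03 for all genes.

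**Figure D5:**
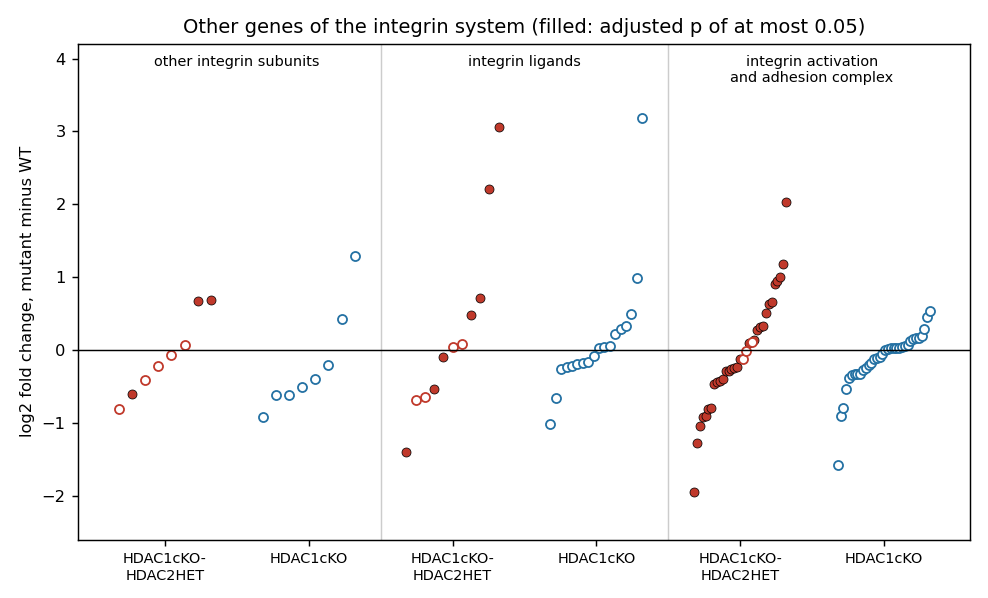
Log2 difference between mutant and WT for the tested genes of the 3 lists in each experiment, sorted within each column, where each point is 1 gene and filled points have a limma adjusted p of at most 0.05. Filled points appear in the HDAC1cKO-HDAC2HET columns, where 13 genes of the activation and adhesion complex list rose and 17 fell; no point is filled in the HDAC1cKO columns.

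Among 12414 genes with a mean of at least 0.1 FPKM in each experiment, those most like *Madcam1* across the 14 samples were *Kank2*, *Bok*, *Traf4*, *Clic5*, and *Syde2*, with Pearson r of 0.99, 0.99, 0.987, 0.986, and 0.986 on the log2(FPKM + 0.1) scale. The samples fall into 4 groups, so r reflects the order of the groups more than variation within them and is given only as a measure of likeness. *Clic5*, which encodes a chloride intracellular channel protein, was 0.0683 to 0.118 FPKM in WT and 1.45 to 1.92 FPKM in HDAC1cKO-HDAC2HET samples, and 0.0573 to 0.113 and 0.276 to 0.316 FPKM in WT and HDAC1cKO samples. Its WT values lay near the filter of 0.1 FPKM, so it passed that filter largely through its mutant values. *Kank2*, a KN motif and ankyrin repeat protein gene, was 0.394 to 0.516 and 4.01 to 4.40 FPKM, and 0.281 to 0.404 and 0.721 to 0.939 FPKM in the same order. *Bok*, a BCL-2 family gene, was 0.631 to 0.850 and 3.85 to 4.66 FPKM, and 0.306 to 0.492 and 1.12 to 1.51 FPKM. *Traf4*, a TRAF family adaptor gene, was the most abundant of the 5, at 37.8 to 43.1 and 94.9 to 102.0 FPKM, and 36.3 to 42.2 and 51.4 to 59.4 FPKM. None of these 5 was on the 3 integrin lists. Those lists do not hold every gene that acts on integrins, so such a gene can still be among the 5.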

How the data were processed

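RNA-Seq of activated CD4+ T cells was measured in 14 samples. By the study's methods, the authors made the FPKM values per library with TopHat 2.0.13 on mm10 and Cufflinks 2.2.1. Cufflinks assembles transcripts and estimates expression. The reads were 50-base single reads of a stranded kit. These methods describe the 3-day culture, and for the HDAC1cKO cells the study refers to earlier work. FPKM values are already scaled to library size and length. The submitters' processing notes also list FastQC, STAR 2.5.2b, Subread 1.5.1, R 3.4, and edgeR, with no role. No counts were used.

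A gene was read by name, or otherwise from the assembled locus sharing at least 0.8 of the joint span with the gene or a transcript in the GENCODE annotation of GRCm38. The same share was required between the libraries of an experiment, and matched loci listed at 0 were left out. Fits used limma 3.58.1 (R 4.3.3), separately for each experiment, on log2(FPKM + 0.1), with a variance trend and Benjamini-Hochberg adjustment over all genes with a mean of at least 0.1 FPKM. Differences on this scale understate the change of low genes. Depth was estimated from the confidence bounds of low genes at an assumed fragment length of 200 bases, where 72.0% to 77.6% of these genes gave whole fragment numbers within 0.05, and covers counting error only. Groups and replicate numbers came from the sample labels. The labels do not say that the samples came from separate animals. For the first experiment, the paper describes the cell batches of both genotypes as independent, with a shared day of preparation. The p-values measure the spread between these samples.

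The members and gene lists were chosen with earlier results of these data known. Named besides the members were *Hdac1*, *Hdac2*, the 5 genes most like *Madcam1* by Pearson r, and at most 4 genes per list and experiment (the largest rise and fall among called genes, then the most abundant). Fits were tested on simulated data. Alternatives changed the pseudocount, filter, scaling, variance model, block, sex covariate, span share, and samples. Tables and figures used pandas 2.3.3, numpy 2.4.6, scipy 1.17.1, and matplotlib 3.10.9.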

Additional observations from a re-analysis of the deposited data

Results flagged for a closer look

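In groups of 4, a value was set apart when the share of the group's range taken by its gap to the next sample was above Dixon's 95% critical value, which chance gives in about 1 of 20 groups. Of 68 gene and group pairs, 1 met this: *Icam1* in HDAC1cKO-HDAC2HET replicate 2, at 40.3 FPKM, with the other mutant samples between 43.1 and 43.3 FPKM. No integrin member and no *Madcam1* value met it.

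For 5 named genes every HDAC1cKO-HDAC2HET sample lay on one side of the WT mean and every HDAC1cKO sample on the other side of its own WT mean; these differences were not tested. They were *Itga9*, with log2 differences of -0.604 and 1.29, *Itga3* (0.671 and -0.498), *Ptk2* (-1.94 and 0.0355), *Ndfip1* (-0.237 and 0.0234), and *Hdac2* (-0.738 and 0.156). The values for *Itga9* in WT samples of the second experiment ranged from 0.368 to 2.24 FPKM. None of the 10 members showed this pattern.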

How the results depend on the processing

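The sign of every member's log2 difference in HDAC1cKO-HDAC2HET cells held under each alternative run except for *Itgae*, which ranged from -0.05 to 0.11 as samples were left out. *Madcam1* moved with the pseudocount, to 2.84 with 1 and 5.12 with 0.01, and ranged from 4.58 to 4.69 as samples were left out. In HDAC1cKO cells 0 members passed by limma under any alternative, *Madcam1* ranged from 0.63 (pseudocount 1) to 3.43, and its adjusted p from 0.163 to 0.471 as samples were left out. As samples were left out, other subunits that fell in HDAC1cKO-HDAC2HET cells numbered 1 to 3, and ligand genes that fell 1 to 3. Ligand genes that rose in those cells numbered 3 to 4 as samples were left out and 4 to 6 under the other alternatives. Activation and adhesion complex genes that fell in HDAC1cKO cells numbered 0 to 1. In HDAC1cKO cells the ligand genes called higher went from 0 to 1 with sex as a covariate, and to 1 with a filter of 1 FPKM; the latter was *Spp1*, whose WT values all lay below 1 FPKM, so that it passed this filter only through its mutant values and the call is no support. Over all genes, the 13 calls of that comparison became 27 with a filter of 1 FPKM, 8 without a variance trend, 76 with sex as a covariate, and 10 to 52 as samples were left out. The signs of *Itga6*, *Itgav*, *Itgb2*, and *Itgb3* in HDAC1cKO cells, none of them called, changed under at least 1 alternative. The sex covariate could not be fitted in the first experiment, where sex read from *Xist* did not vary.

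Same-numbered WT and mutant samples did not deviate together (correlations of -0.07 to 0.13 in the first experiment and -0.10 to 0.05 in the second), and not every sample correlated best with its own number. With the replicate number as a block, 1 ligand gene fell in HDAC1cKO-HDAC2HET cells in place of 3, and the calls over all genes went from 7857 to 7124 and from 13 to 5. The WT values of *Madcam1* above 0 rest on 5 to 14.7 fragments each and carry a large counting error.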
